A study of Mus musculus with 6 samples.

Results

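The genes described here are 36 genes of glycolysis and of the response to low oxygen, taken by gene name from the 55809 genes of the count table: 17 glycolytic enzymes including both lactate dehydrogenase genes, 4 glucose and lactate transporters, 4 pyruvate dehydrogenase kinases, 2 PFKFB enzymes, and 9 genes of the hypoxia-inducible factor (HIF) pathway. They were picked by name and role, without a cutoff on any measured value, but with earlier results of these data known. HC11, a mouse mammary epithelial line that the study uses as a luminal model, was cultured in medium without BMP7 (Ctrl, 3 libraries) or with BMP7 protein (3 libraries), and poly(A) RNA was sequenced. BMP7 is a secreted ligand of the bone morphogenetic protein family. The study's methods describe starvation of HC11 cells for 16 h and then stimulation with 50 ng/mL BMP7, lasting either 30 min or 6 h. Which duration applies to the libraries is not given in the sources used here. The labels name no separate cultures, so p-values measure the spread between these libraries, which may be technical.

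Glycolysis splits glucose into pyruvate in the cytosol. Pyruvate then either enters the mitochondria through the pyruvate dehydrogenase complex, which the PDK kinases inhibit, or is reduced to lactate by lactate dehydrogenase and leaves the cell through monocarboxylate transporters. When oxygen is low, the prolyl hydroxylases of the EGLN family no longer mark the HIF alpha subunit for degradation, and HIF then binds a short element with the core ACGTG or GCGTG near glycolytic genes and near feedback genes such as *Egln3*. The lactating and the developing mammary epithelium both use glucose heavily, for lactose and for growth.

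Totals were 19858701 to 20327200 counts in the Ctrl libraries and 14607938 to 23748970 in the BMP7 libraries. BMP7 libraries carry the numbers 1, 3 and 4 of their count columns, which the labels do not tie to single samples. BMP7 replicates 3 and 4 stood apart from the others in the sums of 2 marker lists. The summed level of 15 adipocyte markers was 29.3 to 41.7 CPM (read counts scaled to library size) in the Ctrl libraries, 44.3 in BMP7 replicate 1, and 122 and 107 in BMP7 replicates 3 and 4. That of 14 macrophage markers was 56.6 to 61.5 CPM in the Ctrl libraries, 58.2 in BMP7 replicate 1, and 30.9 and 29.97 in BMP7 replicates 3 and 4. Most of this fall was *Lyz2*, at 25.5 to 26.6 CPM in Ctrl and 22.5, 6.76 and 6.94 in BMP7 replicates 1, 3 and 4. *Cd68* went the other way (10.9 to 11.6 CPM in Ctrl, 12.4 to 15.6 with BMP7). The sum of 8 fibroblast markers did not set replicates 3 and 4 apart (119 to 128.9 CPM in Ctrl, 107.5 to 123.5 with BMP7). Of that list, *Dcn* was at 0.737 to 1.73 CPM in Ctrl, 1.74 in BMP7 replicate 1, and 4.45 and 4.90 in replicates 3 and 4. *Col1a1*, the largest of that list, had no such pattern. The sum of 12 luminal markers was lower with BMP7 (1808 to 1867 CPM against 2188 to 2223) and that of 8 basal markers was higher (7511 to 8942 CPM against 6551 to 6687). Markers within each list did not all move together. *Krt14* averaged 3489 CPM in Ctrl and 4696 with BMP7, and *Krt17*, *Trp63* and *Oxtr* were also higher. *Myh11*, at 3 to 16 counts a library, was higher at an adjusted p of 0.0513 (edgeR). *Krt5* (2643 and 2582 CPM), *Acta2* and *Mylk* were not higher. *Epcam* (640 and 479.5 CPM), *Cdh1* (983 and 818 CPM), *Krt18* and *Cldn3* were lower at an adjusted p under 0.05 (edgeR). Most other luminal markers had lower means but overlapping groups, and *Krt8* (63.2 and 67.1 CPM) and *Elf3* (10.6 and 11.6 CPM) were not lower. In every library basal keratins *Krt5* and *Krt14* were far above the luminal *Krt8* and *Krt18*, the luminal keratin *Krt19* was at 8 counts or fewer, and *Epcam* and *Cdh1* were high, so the line held epithelial markers but not a purely luminal set. The part of these marker shifts in the results was not tested, and a result that rests on BMP7 replicates 3 and 4 is given without them as well.

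The promoters of the members whose change held in every alternative fit and that have 1 start site in the reference are printed first, to show where the HIF core lies (*Pkm* has 2 starts there, and *Ndrg1* is not in the table used). *Egln3* encodes an oxygen-sensing prolyl hydroxylase, *Bnip3* a mitochondrial protein of mitophagy, *Pdk3* a pyruvate dehydrogenase kinase and *Ddit4* an inhibitor of mTOR signalling. Each run is 300 bases from RefSeq (GRCm38.p6), from 250 before to 50 after the start, written along the gene's strand (the minus strand for all 4), and capitals mark each match to ACGTG or to the other core, GCGTG, on either strand (on the opposite strand the first reads CACGT and the second CACGC).
Egln3, chr12:54203825-54204124: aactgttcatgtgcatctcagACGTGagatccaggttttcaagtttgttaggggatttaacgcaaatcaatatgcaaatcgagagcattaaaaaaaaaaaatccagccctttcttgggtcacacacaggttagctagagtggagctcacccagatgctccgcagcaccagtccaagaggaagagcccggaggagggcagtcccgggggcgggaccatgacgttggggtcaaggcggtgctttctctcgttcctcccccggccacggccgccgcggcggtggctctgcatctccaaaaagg
Bnip3, chr7:138909457-138909756: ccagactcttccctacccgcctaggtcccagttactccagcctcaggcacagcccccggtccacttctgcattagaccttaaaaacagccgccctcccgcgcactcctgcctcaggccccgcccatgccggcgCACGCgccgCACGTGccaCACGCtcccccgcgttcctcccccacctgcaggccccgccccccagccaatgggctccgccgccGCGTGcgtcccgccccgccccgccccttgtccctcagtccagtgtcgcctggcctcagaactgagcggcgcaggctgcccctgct
Pdk3, chrX:93832101-93832400: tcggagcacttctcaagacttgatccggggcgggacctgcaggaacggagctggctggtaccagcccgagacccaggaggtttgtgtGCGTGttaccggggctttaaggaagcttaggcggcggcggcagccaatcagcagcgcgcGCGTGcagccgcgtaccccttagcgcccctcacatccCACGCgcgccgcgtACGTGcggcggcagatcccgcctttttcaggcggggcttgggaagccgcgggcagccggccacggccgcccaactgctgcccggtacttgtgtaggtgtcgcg
Ddit4, chr10:59951721-59952020: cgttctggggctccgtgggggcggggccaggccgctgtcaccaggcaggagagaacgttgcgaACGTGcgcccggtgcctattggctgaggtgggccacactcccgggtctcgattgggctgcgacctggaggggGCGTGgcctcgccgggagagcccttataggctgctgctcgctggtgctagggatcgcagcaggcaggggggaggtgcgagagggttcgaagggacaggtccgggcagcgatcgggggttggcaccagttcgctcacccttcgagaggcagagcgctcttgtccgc
*Egln3* held 1 ACGTG and no GCGTG. *Bnip3* held 2 matches of ACGTG, both from the palindrome CACGTG read on each strand, and 3 of GCGTG. *Pdk3* held 1 ACGTG and 3 GCGTG, and *Ddit4*, the gene of this set that fell, held 1 of each. Over the 34 members that the reference table matched, ACGTG was in 27 of 49 promoters (55.1%), against 19.6% of all 32851 promoters and 24.9% of the 13284 promoters of tested genes. GCGTG was in 55.1% of member promoters, against 32.4% of all and 49.7% of those of tested genes. The 2 motifs can overlap on opposite strands. ACGTG was found for 7 of the 8 matched members that rose, for all 3 that fell, and for 12 of the 20 tested members past no threshold. A match is a description of letters and not of a bound site.

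Of the 36 members, 34 passed the filter on low counts. BMP7 was compared with Ctrl in edgeR's quasi-likelihood test across 15733 genes, with a call where the Benjamini-Hochberg adjusted p was under 0.05 and the fold was 1.2 or more. Of the 34, 9 members were higher with BMP7 (26.5%), where 5.99% of all tested genes were called higher, and 3 were lower (8.82%), where 5.38% of all genes were called lower. The higher ones were *Pfkl*, *Gapdh*, *Pkm*, *Pdk3*, *Pfkfb3*, *Bnip3*, *Egln3*, *Ndrg1* and *Hif1a*, and the lower ones *Pfkm*, *Slc16a1* and *Ddit4*. *Ldha* (up) and *Vegfa* (down) passed the adjusted p but not the fold change. Without a fold threshold the counts were 10 higher and 4 lower, beside 7.33% and 6.42% of all genes. In 61.8% of the tested members the groups did not overlap (15 members with all BMP7 libraries above and 6 with all below), against 29.8% of all tested genes. The median log2 fold change of the 34 was 0.15, and that of all tested genes was -0.01. As most members are well expressed, the share was also taken among those that averaged 10 CPM or more, a limit chosen after the values were seen. There 8 of 27 members were higher, beside 7.07% of 10022 genes, and 3 were lower, beside 6.18%.

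**Figure D1:**
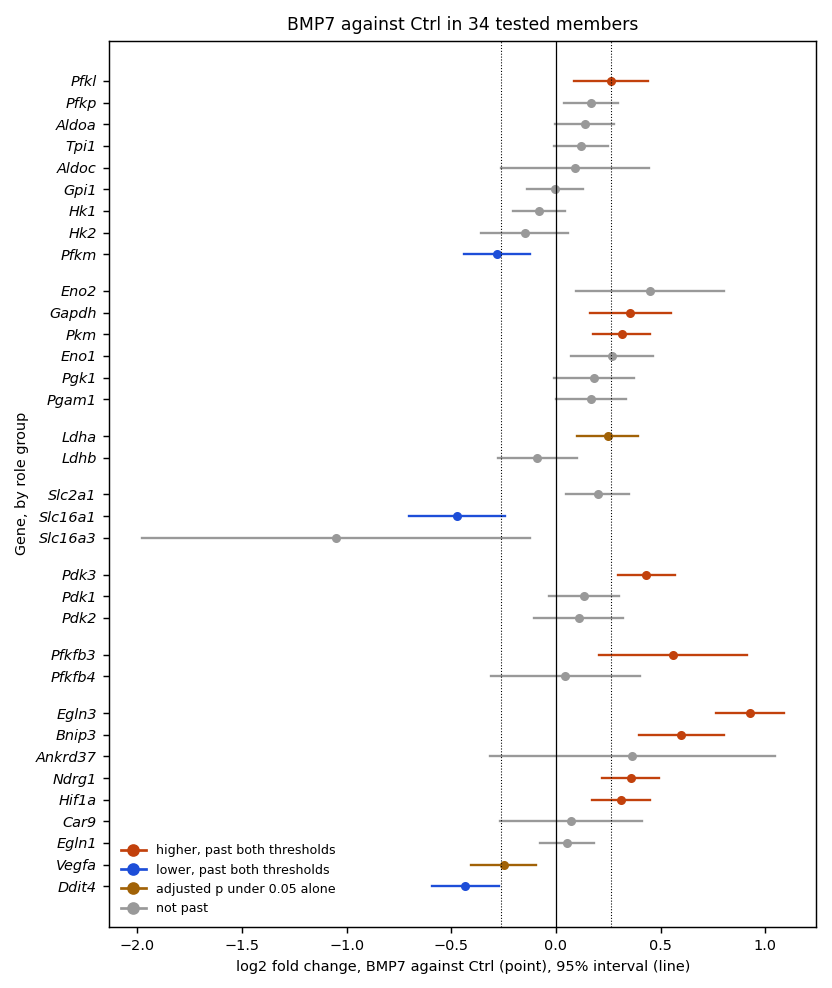
Log2 fold change of BMP7 against Ctrl for the 34 tested members, by role group, with points for the estimate and lines for the 95% interval. *Egln3* lies farthest to the right at 0.93 with an interval of 0.76 to 1.09, and 9 members, among them *Ddit4* and *Slc16a1*, lie to the left of 0.

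Levels between genes are given as CPM per kilobase of summed exon length, averaged over the 6 libraries. *Pkm* was the most abundant member at 313 CPM per kilobase, followed by *Ldha* at 166, *Aldoa* at 148, *Tpi1* at 114 and *Ddit4* at 97.2. At the low end *Slc16a3* (0.191), *Slc2a3* (0.0913) and *Pdk4* (0.0771) were close to absent, and the other members lay between 0.986 and 40.5 CPM per kilobase. The value for *Gapdh*, 5.11, leaves out the fragments counted under its copies (97.1% of their sum). Those for *Pgam1* (67.3%), *Eno1* (63.4%) and *Pgk1* (47.3%) leave out a large part as well. The order of levels therefore holds only for fragments counted under the gene itself.

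**Figure D2:**
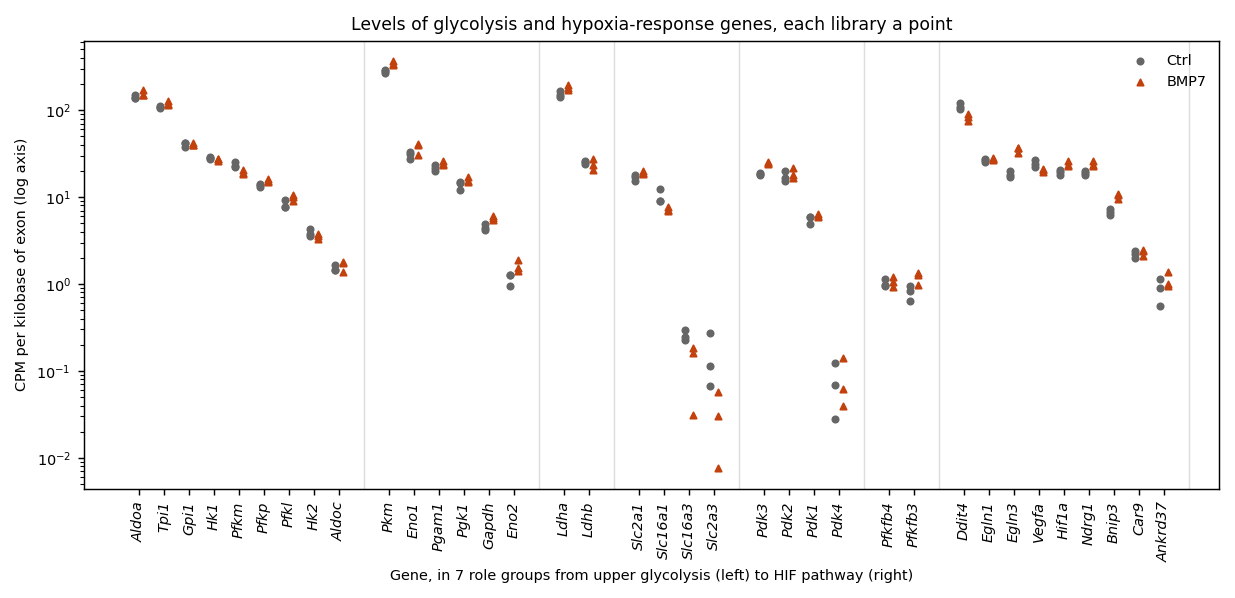
CPM per kilobase of exon (log axis) for each member in each library, circles for Ctrl and triangles for BMP7, in 7 role groups. *Pkm* is the highest at a mean of 313, *Slc2a3* and *Pdk4* lie below 0.1, and for most members the groups differ by far less than the genes do.

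Among the 9 genes of upper glycolysis, 1 rose and 1 fell, beside 5.99% and 5.38% of all tested genes. Both encode phosphofructokinase, the enzyme of the committed step. The muscle-type subunit *Pfkm* (chr15:97990470-98030332, mm39) was at 85.5, 73.7 and 75.4 CPM in Ctrl replicates 1, 2 and 3 and at 62.9, 61.0 and 69.2 CPM in BMP7 replicates 1, 3 and 4. Library values below follow the same order. All BMP7 libraries lay below all Ctrl libraries, and the log2 fold change was -0.28 ± 0.074 (SE; adjusted p = 0.0176, edgeR). The liver-type subunit *Pfkl* (chr10:77822781-77845917) was at 51.7, 62.0 and 51.4 CPM in Ctrl and 71.2, 66.3 and 60.9 CPM with BMP7. The groups of *Pfkl* overlapped through Ctrl replicate 2 and BMP7 replicate 4, and its log2 fold change of 0.26 ± 0.083 was a fold of 1.2, at the threshold itself (adjusted p = 0.0447, edgeR). The platelet-type subunit *Pfkp* was at 182, 191 and 174 CPM in Ctrl and 198, 203 and 215 CPM with BMP7, without overlap, but its log2 fold change of 0.17 ± 0.061 did not pass (adjusted p = 0.0795, edgeR).

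Both phosphofructokinase calls were lost without some single libraries, at the same direction and a fold of similar size. *Pfkl* had a log2 fold change of 0.22 without Ctrl replicate 1 (adjusted p = 0.177), 0.22 without Ctrl replicate 3 (0.171), 0.21 without BMP7 replicate 1 (0.144) and 0.26 without BMP7 replicate 3 (0.106, edgeR). *Pfkm* was at -0.21 without Ctrl replicate 1 (adjusted p = 0.114) and at -0.24 without BMP7 replicate 3 (0.0873, edgeR). Without BMP7 replicates 3 and 4 together, *Pfkm* was at a log2 fold change of -0.31 (adjusted p = 0.0674, edgeR). As shares of the 3 subunits per kilobase, *Pfkm* was at 51.7% ± 3.1 (SD, n = 3) in Ctrl and 43.3% ± 1.6 with BMP7, *Pfkp* at 30.1% ± 1.1 and 34.4% ± 0.90, and *Pfkl* at 18.2% ± 1.98 and 22.3% ± 2.2. *Pfkm* shares did not overlap (48.4% to 54.5% against 42.2% to 45.2%), and neither did those of *Pfkp*. Which subunit leads depends on the length scaling: the annotated exons of *Pfkp* sum to 13401 bases, and in plain CPM *Pfkp* was the largest, at 57.8% in Ctrl and 61.1% with BMP7.

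No other gene of upper glycolysis passed the test. *Aldoa*, the main aldolase and the most abundant gene of the group per kilobase, was at 511, 552 and 509.8 CPM in Ctrl and 626, 553 and 552 CPM with BMP7. The groups did not overlap, but the nearest libraries differed by less than the spread within BMP7, and the log2 fold change was 0.14 ± 0.067 (adjusted p = 0.206, edgeR). The triose phosphate isomerase *Tpi1* was similar, at 0.12 (adjusted p = 0.223, edgeR). The hexokinases, which trap glucose as its phosphate, had log2 fold changes of -0.08 for *Hk1* and -0.15 for *Hk2* (adjusted p of 0.418 and 0.37, edgeR), glucose phosphate isomerase *Gpi1* was at -0.01 and the minor aldolase *Aldoc* at 0.09. *Hk1* made up 86.3% to 89.3% of hexokinase per kilobase in every library, and *Aldoa* 98.8% to 99.1% of aldolase.

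All 6 genes of lower glycolysis, the stretch of the pathway that yields ATP, had positive log2 fold changes (median 0.29), as had 48.6% of all tested genes. Of the 6, 2 rose, beside 5.99% of all tested genes. Pyruvate kinase *Pkm* (chr9:59563651-59586658), which makes pyruvate, was at 1396, 1451 and 1338 CPM in Ctrl and 1833, 1662 and 1706 CPM with BMP7. The groups were fully apart, at a log2 fold change of 0.31 ± 0.065 (adjusted p = 0.00349, edgeR), and the call held in each fit with a library left out. *Gapdh* (chr6:125138678-125143430), the dehydrogenase often used as a reference gene, was at 17.1, 18.4 and 20.2 CPM in Ctrl and 23.6, 24.8 and 22.8 CPM with BMP7, a log2 fold change of 0.36 ± 0.092 (adjusted p = 0.0161, edgeR). The log2 fold change of *Gapdh* was 0.30 without Ctrl replicate 1 (adjusted p = 0.0826), 0.35 without Ctrl replicate 2 (0.0647), 0.32 without BMP7 replicate 3 (0.0708) and 0.35 without BMP7 replicates 3 and 4 together (0.134, edgeR), so the size stayed similar but the call was lost.

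The other 4 genes of the group did not pass. The neuronal-type enolase *Eno2* was at 4.50 to 6.02 CPM in Ctrl and 6.58 to 8.92 CPM with BMP7 (log2 fold change 0.45 ± 0.17, adjusted p = 0.0894, edgeR). *Eno1*, the main enolase, was at 149 to 177 CPM in Ctrl and 165 to 219.6 CPM with BMP7 (0.27 ± 0.092, adjusted p = 0.0685), with BMP7 replicate 4 inside the Ctrl range. Without BMP7 replicate 4 its log2 fold change was 0.38 and passed (adjusted p = 0.0032, edgeR), as it did in DESeq2 (adjusted p = 0.0415). Phosphoglycerate kinase *Pgk1* and phosphoglycerate mutase *Pgam1* were at 0.18 and 0.17 (adjusted p of 0.215 and 0.185, edgeR).

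**Figure D3:**
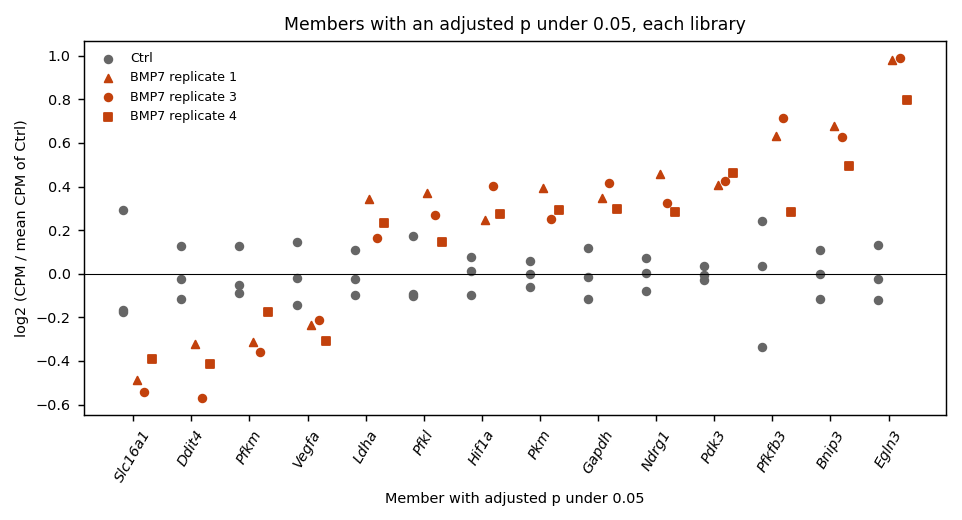
Log2 ratio of each library's CPM to the Ctrl mean for the 14 members with an adjusted p under 0.05, grey circles for the Ctrl libraries and separate orange symbols for BMP7 replicates 1, 3 and 4. BMP7 libraries lie on one side of all Ctrl libraries for each member but *Pfkl*, and the widest gap is at *Egln3*, whose fitted fold is 1.90.

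For several of these enzymes most of the reads were counted under copies rather than under the gene. Mouse *Gapdh* has many processed pseudogenes, and by the header of the deposited counts fragments that mapped to several places were not counted. Transcripts of 79 other genes in the table matched at least 10% of the *Gapdh* transcript at 95% identity or more, and 71 of them had counts. Over all libraries *Gapdh* itself held 2450 counts and the copies 83021 (97.1% of the sum), of which *Gm13394* (chromosome 2) alone held 63160. Over 1000 aligned bases *Gm13394* differed from *Gapdh* at 1 base. A window of 61 bases around that base, positions 316 to 376 of the open reading frame in the reference transcripts (GENCODE vM21, GRCm38), is shown with the differing base in capitals.
Gapdh: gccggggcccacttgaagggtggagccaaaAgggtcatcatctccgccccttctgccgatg
Gm13394: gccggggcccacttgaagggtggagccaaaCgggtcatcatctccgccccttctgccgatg
A read inside the aligned stretch that does not reach this base has the same letters in both.

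With each gene summed with its copies, *Gapdh* was at 647, 683 and 692 CPM in Ctrl and 789, 835 and 765 CPM with BMP7. The groups again did not overlap, at a log2 fold change of 0.24 ± 0.062 (adjusted p = 0.0159, edgeR), which is under the fold threshold. *Gm13394* on its own was at 495, 513 and 508 CPM in Ctrl and 581, 588 and 577 CPM with BMP7 (log2 fold change 0.20, adjusted p = 0.0256, edgeR). The single copy of *Pgam1*, *Pgam1-ps2*, is identical to it over 765 bases and held 67.3% of their sum. Summed, *Pgam1* was at 111, 135 and 126 CPM in Ctrl and 156, 158 and 149.8 CPM with BMP7 and passed (log2 fold change 0.32 ± 0.069, adjusted p = 0.00511, edgeR). *Pgk1* summed with 3 copies, which held 47.3% of the counts, also passed (0.28 ± 0.071, adjusted p = 0.0159, edgeR). Enolase *Eno1* summed with 3 copies, among them *Eno1b* at 99.5% identity over 1652 bases, did not (0.18 ± 0.066, adjusted p = 0.0782, edgeR). *Pkm* kept its call with its copy *Gm6560*, which held 18.3% of the sum (0.31, adjusted p = 0.00504, edgeR). With copies summed, 10 members rose in place of 9, with *Pgk1* and *Pgam1* added and *Gapdh* lost. Which locus the counted fragments came from cannot be told apart from these files.

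**Figure D4:**
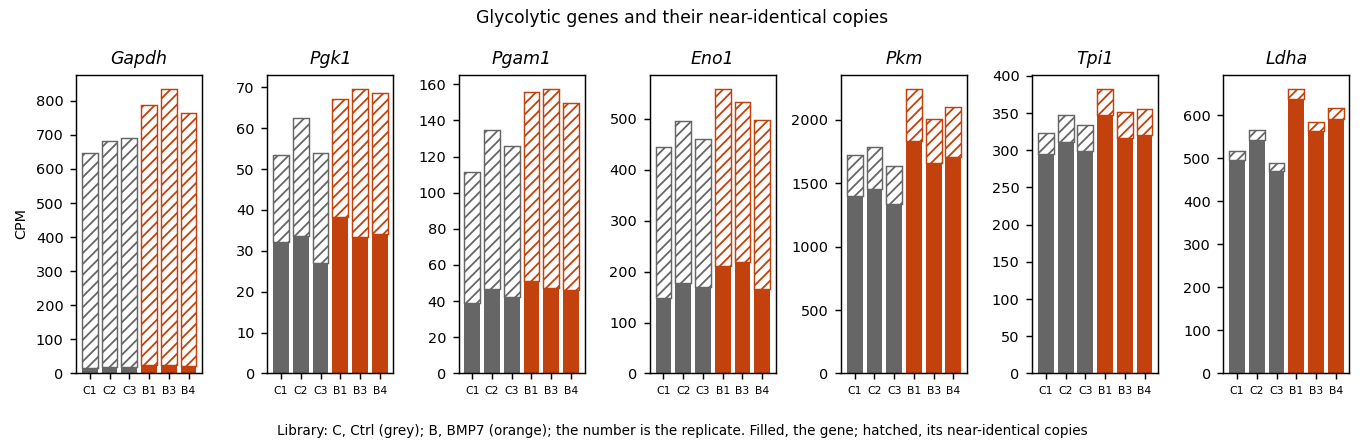
Stacked bars of CPM by library for glycolytic genes (filled) and their near-identical copies (hatched), with grey for Ctrl and orange for BMP7. For *Gapdh* nearly the whole bar is hatched (97.1% of all counts), and the summed bars of the BMP7 libraries (765 to 835 CPM) are above those of the Ctrl libraries (647 to 692 CPM).

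Lactate dehydrogenase interconverts pyruvate and lactate. *Ldha* (chr7:46490899-46505051), the subunit that favours lactate, was at 496, 543 and 471 CPM in Ctrl and 638, 564 and 591 CPM with BMP7. The groups did not overlap, and the log2 fold change of 0.25 ± 0.069 passed the adjusted p (0.0257, edgeR) but at a fold of 1.19 not the fold threshold. It passed both without Ctrl replicate 2 (0.30, adjusted p = 0.0264) or BMP7 replicate 3 (0.29, adjusted p = 0.0169), and neither without Ctrl replicate 1 (0.24, adjusted p = 0.0888), Ctrl replicate 3 (0.20, adjusted p = 0.129) or BMP7 replicate 1 (0.20, adjusted p = 0.0822, edgeR). *Ldhb*, the heart-type subunit, was at 39.9, 40.8 and 38.0 CPM in Ctrl and 42.5, 32.5 and 37.2 CPM with BMP7, with overlapping groups (-0.09 ± 0.089, adjusted p = 0.586, edgeR). The *Ldha* share of both subunits per kilobase was 85.5%, 86.3% and 85.5% in Ctrl and 87.7%, 89.2% and 88.3% with BMP7, without overlap.

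**Figure D5:**
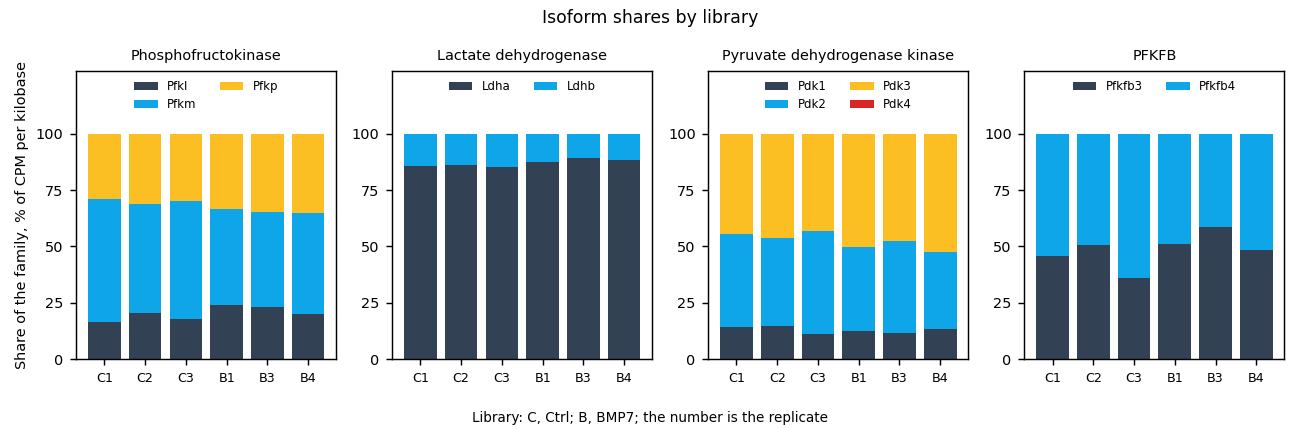
Stacked bars of the share of each isoform among the members of its family, in percent of CPM per kilobase, for each library. The PFKFB panel holds *Pfkfb3* and *Pfkfb4* only. In phosphofructokinase the *Pfkm* share is 48.4% to 54.5% in the Ctrl libraries and 42.2% to 45.2% in the BMP7 libraries, and in lactate dehydrogenase the *Ldha* share is above 85% in every library.

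Of the 4 transporters, 3 were tested. Of these, 1 fell, beside 5.38% of all tested genes, and none rose, beside 5.99%. *Slc16a1* (chr3:104545984-104565778), which carries lactate and other monocarboxylates across the plasma membrane, was at 39.5, 54.5 and 39.7 CPM in Ctrl and 31.8, 30.6 and 33.99 CPM with BMP7. All BMP7 libraries lay below, at a log2 fold change of -0.47 ± 0.11 (adjusted p = 0.0071, edgeR). Ctrl replicate 2 was the highest, and without it the value was -0.30 (adjusted p = 0.043, edgeR). Without BMP7 replicates 3 and 4 the value was -0.48 (adjusted p = 0.0881, edgeR). The hypoxia-linked lactate exporter *Slc16a3* was low, at 1.204, 1.57 and 1.32 CPM in Ctrl and 0.976, 0.845 and 0.165 CPM with BMP7. Its log2 fold change was -1.05 ± 0.44 (adjusted p = 0.133, edgeR), with BMP7 replicate 4 by itself far below the rest. The glucose transporter *Slc2a1* was at 58.9, 62.2 and 53.3 CPM in Ctrl and 70.2, 65.9 and 64.4 CPM with BMP7. These groups did not overlap, but the log2 fold change of 0.20 ± 0.071 missed the threshold (adjusted p = 0.0791, edgeR). *Slc2a3*, the neuronal-type glucose transporter, had 1 to 40 counts a library and was removed by the filter. Its level was 0.819, 1.97 and 0.489 CPM in Ctrl and 0.418, 0.222 and 0.055 CPM with BMP7, and in a fit with no filter its log2 fold change was -2.28 ± 0.53 (adjusted p = 0.000403, edgeR). Adjusted p-values of that fit are not comparable with the main ones. For *Pfkm* it gave 0.00209 in place of 0.0176, and for *Hk1* 0.597 in place of 0.418 (edgeR). *Slc2a1* held 98.5% or more of the pair per kilobase in every library.

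Among the kinases that inhibit pyruvate dehydrogenase, *Pdk3* rose. *Pdk3* (chrX:92808213-92875807), the gene with 3 GCGTG matches printed above, was at 45.9, 46.6 and 47.9 CPM in Ctrl and 62.0, 62.9 and 64.5 CPM with BMP7. The libraries of each group lay close together and far from those of the other group, at a log2 fold change of 0.43 ± 0.064 (adjusted p = 0.00016, edgeR). *Pdk1*, the isoform best known as a HIF target, was at 45.8, 45.6 and 38.3 CPM in Ctrl and 46.6, 46.2 and 49.5 CPM with BMP7. The difference was smaller than the spread within Ctrl (0.13 ± 0.079, adjusted p = 0.307, edgeR), and *Pdk2* overlapped widely (0.11, adjusted p = 0.544, edgeR). *Pdk4*, a fasting-induced isoform, had 2 to 11 counts a library and was not tested, with 0.0983 to 0.433 CPM in Ctrl and 0.139 to 0.489 CPM with BMP7. Per kilobase, *Pdk3* made up 44.3% ± 1.6 (SD, n = 3) of the 4 kinases in Ctrl and 49.8% ± 2.5 with BMP7, and *Pdk2* 42.0% ± 3.4 and 37.7% ± 3.3.

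The PFKFB enzymes set the level of the sugar bisphosphate that activates phosphofructokinase. *Pfkfb3* (chr2:11476244-11558888), the isoform with the highest kinase activity, was at 6.26, 7.23 and 4.84 CPM in Ctrl and 9.48, 10.04 and 7.44 CPM with BMP7. The groups did not overlap, although Ctrl replicate 2 and BMP7 replicate 4 were close, and the log2 fold change was 0.56 ± 0.17 (adjusted p = 0.0343, edgeR). The call was lost without Ctrl replicate 1 (adjusted p = 0.0742), Ctrl replicate 3 (0.141), BMP7 replicate 1 (0.0759), BMP7 replicate 3 (0.154) or BMP7 replicates 3 and 4 together (0.0952, edgeR), at log2 fold changes of 0.42 to 0.64. *Pfkfb4* averaged 1.04 CPM per kilobase over all libraries and *Pfkfb3* 0.998, but the order differed by library, with *Pfkfb3* at 35.9% to 50.5% of the pair in Ctrl and 48.4% to 58.8% with BMP7. The pair is not the whole family: *Pfkfb2* averaged 3.66 CPM per kilobase and *Pfkfb1* 1.47, both outside the members. *Pfkfb4* was at 4.77, 4.57 and 5.58 CPM in Ctrl and 5.85, 4.53 and 5.12 CPM with BMP7, with overlapping groups (0.04 ± 0.17, adjusted p = 0.905, edgeR).

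In the HIF pathway, 4 of 9 genes rose and 1 fell, beside 5.99% and 5.38% of all tested genes. *Vegfa* passed the adjusted p alone. Among members past the threshold the largest change was that of *Egln3* (chr12:54225767-54250646), at 44.9, 48.0 and 53.6 CPM in Ctrl and 96.5, 97.1 and 85.0 CPM with BMP7. The lowest BMP7 library was well above the highest Ctrl library, and the log2 fold change was 0.93 ± 0.077, a fold of 1.90 (adjusted p = 3.33e-07, edgeR). Its paralog *Egln1*, the main oxygen sensor of most cells, was at 90.7 to 98.7 CPM in Ctrl and 96.3 to 102 CPM with BMP7 (0.05 ± 0.061, 95% interval -0.08 to 0.18, adjusted p = 0.631, edgeR). Per kilobase, *Egln3* went from 18.4 in Ctrl to 34.9 with BMP7, where *Egln1* averaged 27.1 over all libraries.

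*Bnip3* (chr7:138492565-138511248) was at 14.3, 16.6 and 15.4 CPM in Ctrl and 24.7, 23.8 and 21.7 CPM with BMP7. No library of one group came near those of the other, at a log2 fold change of 0.60 ± 0.097 (adjusted p = 0.000386, edgeR). *Ndrg1* (chr15:66801167-66841489), a stress-responsive gene of differentiation, was at 130.3, 124 and 117 CPM in Ctrl and 170.3, 156 and 151 CPM with BMP7. Its groups were apart as well (0.36 ± 0.065, adjusted p = 0.00123, edgeR). *Hif1a* itself (chr12:73948149-73994304), the oxygen-regulated alpha subunit of the factor, was at 107, 116 and 121 CPM in Ctrl and 136, 151 and 139 CPM with BMP7. The transcript was higher in each BMP7 library (0.31 ± 0.066, adjusted p = 0.00413, edgeR), and without BMP7 replicates 3 and 4 the value was 0.25 (adjusted p = 0.0855, edgeR). HIF is controlled largely through protein stability, which these libraries do not measure.

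*Ddit4* (chr10:59785491-59787656), an abundant stress-induced gene, was at 193, 214 and 181 CPM in Ctrl and 157, 132 and 147 CPM with BMP7. It fell without overlap by 0.43 ± 0.075 on the log2 scale (adjusted p = 0.000784, edgeR). *Vegfa* (chr17:46327919-46343295), the angiogenic growth factor, was at 94.0, 115 and 102 CPM in Ctrl and 88.1, 89.6 and 83.7 CPM with BMP7. Every BMP7 library lay below, at a log2 fold change of -0.25 ± 0.073 (adjusted p = 0.0305, edgeR), or a fold of 0.841, which is short of the fold threshold. Without Ctrl replicate 1 *Vegfa* passed both thresholds (-0.32, adjusted p = 0.013), and without any 1 of the other 5 libraries its adjusted p was 0.0523 to 0.194 (edgeR). The carbonic anhydrase *Car9*, a standard hypoxia marker, was at 4.62 to 5.49 CPM in Ctrl and 4.79 to 5.65 CPM with BMP7 (0.07 ± 0.16, adjusted p = 0.825, edgeR). *Ankrd37*, at 0.867 to 1.77 CPM in Ctrl and 1.46 to 2.09 CPM with BMP7, did not pass (0.37 ± 0.32, adjusted p = 0.522, edgeR). Exons of *Car9* (28.7% of their length), *Ankrd37* (26.4%), *Bnip3* (22.3%), *Pkm* (15.3%) and *Pfkm* (10.8%) overlap those of other genes, and fragments in such stretches were not counted for either gene.

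*Pkm*, *Pdk3*, *Bnip3*, *Egln3*, *Ddit4* and *Ndrg1* passed in all 12 alternative fits, including that without BMP7 replicates 3 and 4. That fit leaves 1 BMP7 library, which is assumed to vary as the Ctrl libraries do. In it 8 members were higher, where 4.41% of 16784 genes were, and 1 was lower, where 3.94% were. *Eno1* and *Ldha* joined the higher members there, while *Gapdh*, *Pfkfb3* and *Hif1a* were not past the threshold. Exact two-sided permutation tests over 3 against 3 libraries give 0.1 for each member without overlap, the smallest p this design allows.

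Genes of the same pathways outside the 36 were read from fixed lists, also chosen with earlier results known. They held 112 genes, of which 91 were tested. Of these, 10 rose (11%) and 5 fell (5.49%), beside 5.99% and 5.38% of all genes, with a median log2 fold change of 0.01. Among 35 tested genes of other glycolysis and pyruvate steps, 2 rose and 2 fell (5.71% each), which is near the shares of all genes. The gluconeogenic phosphatase *Fbp1*, which runs opposite to phosphofructokinase, was at 8.67, 9.29 and 8.56 CPM in Ctrl and 14.6, 15.02 and 14.5 CPM with BMP7 (0.74 ± 0.11, adjusted p = 0.00016, edgeR), far outside the spread of either group. The gluconeogenic carboxykinase *Pck1* was at 1.204, 0.492 and 0.587 CPM in Ctrl and 1.12, 4.80 and 3.47 CPM with BMP7 (2.07 ± 0.44, adjusted p = 0.00432, edgeR). Its rise was in BMP7 replicates 3 and 4 alone, the libraries with the high adipocyte marker sum, a list that also holds *Pck1*, and without them it was 0.55 (adjusted p = 0.67, edgeR). Pyruvate carboxylase *Pcx* and the pyruvate dehydrogenase phosphatase *Pdp1*, which undoes what the PDK kinases do, were lower (-0.35 ± 0.094, adjusted p = 0.0184, and -0.38 ± 0.12, adjusted p = 0.0481, edgeR). Both calls were lost without some single libraries and without BMP7 replicates 3 and 4 together. That of *Pdp1* was also lost in DESeq2, with RLE scaling and with a minimum of 10 counts in every library. Over all these fits the log2 fold changes stayed at -0.45 to -0.28 for *Pcx* and -0.45 to -0.32 for *Pdp1*. *Pcx* had an adjusted p of 0.104 without Ctrl replicate 1, 0.067 without Ctrl replicate 3, 0.0559 without BMP7 replicate 1 and 0.101 without BMP7 replicate 3, and *Pdp1* one of 0.0501 to 0.171 without any library but Ctrl replicate 1 (edgeR).

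Of 8 pentose phosphate genes, the entry enzyme *G6pdx* rose, from 124, 139 and 132 CPM in Ctrl to 178, 173 and 155 CPM with BMP7 (0.35 ± 0.067, adjusted p = 0.00176, edgeR). The ribose phosphate isomerase *Rpia*, of the later branch, fell from 27.1, 26.6 and 24.9 CPM to 19.0, 18.9 and 18.2 CPM (-0.49 ± 0.085, adjusted p = 0.000772, edgeR). Neither gene overlapped between groups, and the other 6 genes did not pass. Of all tested genes, 5.99% were called higher, 5.38% were called lower and 29.8% did not overlap.

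Of 48 tested further HIF pathway genes, 7 rose (14.6%) and 2 fell (4.17%), beside 5.99% and 5.38% of all tested genes. Another 2 passed the adjusted p alone, and the median log2 fold change was 0.07. *Igfbp3*, which binds insulin-like growth factors, went from 516, 471 and 568 CPM to 1043, 1037 and 902 CPM (0.94 ± 0.078, adjusted p = 3.2e-07, edgeR). This change was several times the spread within a group. The VEGF receptor *Flt1* (0.75 ± 0.063, adjusted p = 3.8e-07), the transcriptional co-regulator *Cited2*, which competes with HIF for its coactivator (0.63 ± 0.097, adjusted p = 0.000241), and the collagen prolyl hydroxylase *P4ha1* (0.47 ± 0.086, adjusted p = 0.00116) also rose, and the circadian repressor *Bhlhe41* fell (-0.67 ± 0.087, adjusted p = 4.41e-05, edgeR). *Flt1* is also an endothelial gene, and the 6 endothelial markers summed to 13.8 to 16.1 CPM in Ctrl and 24.5 to 26.5 CPM with BMP7. This sum was mostly *Pecam1*, with *Cdh5*, *Kdr*, *Tek* and *Emcn* near 0, and its part in the result was not tested.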

How the data were processed

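Poly(A) RNA of HC11 cells was sequenced as read pairs. Per the labels and the file header, the authors aligned with subjunc (Subread 2.0.3) and counted fragments with featureCounts 2.0.1. The deposited values are raw counts per gene name on exons of an annotation named mm39 (the methods name mm10 and GENCODE vM30), with no strand option and without fragments of several places or genes. CPM was scaled by TMM without a prior count, and CPM per kilobase used the deposited exon lengths.

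Counts were tested in R 4.3.3 with edgeR 4.0.16 (quasi-likelihood, filter by expression, TMM, Benjamini-Hochberg over 15733 genes). The threshold was that of the study, and a standard error is the log2 fold change over the square root of F. The code was tested on simulated data. Exact permutation tests used log2(CPM + 0.1). Copies were found with BLAST 2.17.0 (at least 100 bases at 95% identity, 10% of the transcript, no shared exons). Alternatives were DESeq2 1.42.0, RLE and upper-quartile scaling, other filters and thresholds, libraries left out and copies summed. Within groups, counts of library pairs differed by 5 to 11.8 times the sampling variance, which is more than repeated sequencing of the same library would give. This cannot tell separate cultures from libraries prepared separately from the same culture. Members and lists were chosen with earlier results of these data known. Library values were given for members past the adjusted p, the most abundant member of each role and preset genes, and of other lists for up to 6 genes with the largest change past the threshold, in full or as the fold change; 1 gene that this rule names is not reported here.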

Additional observations from a re-analysis of the deposited data

How the results depend on the processing

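The number of members called higher, 9 as reported, was 8 to 10 under DESeq2, other scalings, other filters, the adjusted p alone, without BMP7 replicates 3 and 4 together, and with copies summed, and 6 to 10 with 1 library left out. At a fold of 1.5 there were 2, *Egln3* and *Bnip3*. The number called lower, 3 as reported, was 2 to 4 with 1 library left out, 1 without BMP7 replicates 3 and 4, and 0 at a fold of 1.5 (4 at the adjusted p alone). For the other pathway genes, 10 were higher (9 to 13 with 1 library left out, 6 at a fold of 1.5) and 5 were lower (4 to 7 with 1 library left out, 9 with no filter, 3 without BMP7 replicates 3 and 4, and 1 at a fold of 1.5). These numbers count all genes called in each fit, which need not be the same ones. The cause of the shifts was not tested, except that a higher fold threshold can only remove calls. Of the 12 members called, 6 kept their call in every fit and 0 changed sign. *Pfkl* also lost its call with upper-quartile scaling (0.25, adjusted p = 0.0629, edgeR), and its fold fell short of 1.2 with no filter and with a minimum of 10 counts. *Vegfa* passed with upper-quartile scaling (-0.27, adjusted p = 0.0206, edgeR). *Gpi1*, *Ldhb*, *Pdk2* and *Pfkfb4*, none called, changed sign in some fit. No paired analysis was possible because the BMP7 count columns carry numbers that the labels do not tie to single samples. *Slc2a3* and *Pdk4*, at 1 to 40 counts a library, were too low for the filter.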
